A study of Mus musculus with 18 samples.

Results

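Drd1, Drd2, Drd3, Adora1, Adora2a, Gpr6, Gnal, Gng7 and Adcy5 encode the receptors for dopamine and adenosine in the striatum, an orphan receptor of the same neurons, and the proteins that connect these receptors to the messenger cAMP. The genes were chosen by name, as 9 of the 55421 genes in the deposited table of read counts. All 9 were among the 20914 genes with enough counts to be tested.

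The counts came from the striatum of 18 C57BL/6 mice (C57BL/6J in the study's methods) aged 12-14 months, with 1 library for each mouse. The WT group held 5 mice with neither change. The zQ175 group held 5 mice heterozygous for a knock-in of human and mouse chimeric Htt exon 1 with an expanded CAG repeat, a model of Huntington's disease. The CK2a'(+/-) group held 3 mice that lacked 1 allele of Csnk2a2, which encodes the catalytic CK2a' subunit of the protein kinase CK2. The zQ175:CK2a'(+/-) group held 5 mice with both changes. Both changes were inherited and not limited to a cell type, and the sex of each mouse was not given in the labels. Per the study's methods, females outnumbered males in the WT and zQ175:CK2a'(+/-) groups. Males outnumbered females in the zQ175 and CK2a'(+/-) groups, and the main fit did not include sex. The comparisons asked how the mutant Htt allele and the loss of a Csnk2a2 allele, alone and together, changed striatal transcripts.

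In the striatum, dopamine and adenosine act in opposite directions on the cAMP of projection neurons. The Drd1 receptor raises cAMP in neurons of the direct pathway, through the G protein alpha subunit from Gnal, the gamma subunit from Gng7 and the adenylyl cyclase from Adcy5. The Drd2 receptor lowers cAMP in neurons of the indirect pathway, where the Adora2a receptor raises it through the same Gnal and Adcy5 proteins. The Adora1 receptor lowers cAMP and is made by many types of neuron, and loss of striatal Drd1, Drd2 and Adora2a is a known feature of Huntington's disease.

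The genes lay on GRCm38 chromosome 1 (Adora1, 134199223 to 134235431), 9 (Drd2, 49340627 to 49408177), 10 (Gpr6, 41069977 to 41072285, Adora2a, 75316877 to 75334784, and Gng7, 80948624 to 81014945), 13 (Drd1, 54051183 to 54055705), 16 (Adcy5, 35154877 to 35305738, and Drd3, 43754026 to 43822932) and 18 (Gnal, 67088216 to 67226792). Promoter windows from RefSeq (GRCm38.p6) were found for 7 of the 9 genes, and the stretch before every annotated exon is shown for 4 genes that were lower together in carriers of the zQ175 allele (Drd1, Drd2, Gpr6 and Adcy5) and for Adora1, which was not. Each is written 5′ to 3′ on the strand of the gene, and capitals mark matches to the GC box GGGCGG or to the cAMP response element (CRE) TGACGTCA on either strand.
Drd1 (chr13:54055706-54055908, minus strand): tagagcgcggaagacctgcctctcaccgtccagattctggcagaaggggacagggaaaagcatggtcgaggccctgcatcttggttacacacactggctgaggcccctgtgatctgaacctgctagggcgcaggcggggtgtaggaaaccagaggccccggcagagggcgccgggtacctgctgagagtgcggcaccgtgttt
Drd2 (chr9:49340153-49340402, plus strand): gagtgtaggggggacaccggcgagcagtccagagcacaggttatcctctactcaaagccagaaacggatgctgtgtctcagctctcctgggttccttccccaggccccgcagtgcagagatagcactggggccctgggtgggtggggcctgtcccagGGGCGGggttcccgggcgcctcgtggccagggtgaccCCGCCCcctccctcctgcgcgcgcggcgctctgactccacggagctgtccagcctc
Gpr6 (chr10:41072291-41072540, minus strand): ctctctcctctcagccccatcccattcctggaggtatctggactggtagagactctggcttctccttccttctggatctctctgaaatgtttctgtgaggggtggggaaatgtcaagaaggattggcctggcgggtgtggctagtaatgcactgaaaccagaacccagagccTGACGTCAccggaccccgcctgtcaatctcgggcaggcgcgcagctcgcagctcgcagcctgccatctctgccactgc
Adcy5 (chr16:35154614-35154863, plus strand): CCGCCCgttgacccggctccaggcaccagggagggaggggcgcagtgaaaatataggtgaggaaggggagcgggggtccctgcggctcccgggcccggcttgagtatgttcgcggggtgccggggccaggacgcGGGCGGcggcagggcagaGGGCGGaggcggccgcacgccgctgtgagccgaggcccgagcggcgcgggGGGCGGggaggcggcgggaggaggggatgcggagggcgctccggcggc
Adora1 (chr1:134235458-134235707, minus strand): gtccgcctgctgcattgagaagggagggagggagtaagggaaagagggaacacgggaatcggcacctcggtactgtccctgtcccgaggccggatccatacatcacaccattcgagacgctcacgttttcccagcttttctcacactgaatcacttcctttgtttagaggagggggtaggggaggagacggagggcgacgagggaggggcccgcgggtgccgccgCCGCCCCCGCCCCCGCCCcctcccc

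The stretch before Gpr6 held a full CRE that began 78 bases before the start site. Such a match was present in 588 of 32851 mouse promoter windows (1.79%), which ran from 250 bases before to 50 bases after a start site. No other member's window held one. The CRE contains its own shorter core TGACG on both strands, and that core was found in 20.8% of the windows. GC boxes were counted 4 times before Adcy5, 2 times before Drd2 and 3 times before Adora1, and at least 1 GC box was present in 35.7% of all windows. No match was found in the stretch shown for Drd1, whose window around this start site held a GC box only after the start. A match of letters describes the sequence and does not show a bound site, and a link between these matches and the levels was not tested.

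Total counts ranged from 13612381 to 22702547 per library. The targeted gene followed the labels, since Csnk2a2 was at 3.88 to 4.32 log2 CPM (CPM are counts scaled to a common library size by TMM) in the 8 mice lacking an allele and at 4.88 to 5.23 in the other 10. Markers of projection neurons were present in every library, with the summed level of 7 such genes between 1539 and 5905 CPM. Some libraries stood apart. The summed level of 4 thalamic markers was 861 CPM in zQ175 replicate 1 and 29.3 to 394 CPM in the other libraries, and this library held 17.0 CPM of the dopamine transporter gene Slc6a3, which was at most 0.718 CPM in the other 17. The summed level of 6 cortical markers was 318 CPM in zQ175 replicate 5, 96.4 to 197 CPM in the other zQ175 mice and 65.9 to 111 CPM in WT mice. Over genes that differed between zQ175:CK2a'(+/-) and CK2a'(+/-) mice, WT replicates 4 and 5 lay with the zQ175 mice rather than with WT replicates 1 to 3. Over 456 genes called in a fit of the zQ175:CK2a'(+/-) and CK2a'(+/-) mice alone, with the 9 members left out, the median deviation in the direction of the zQ175 allele was 0.17 and 0.19 (log2) in these 2 mice, -0.26 to -0.47 in the other WT mice and 0.15 to 0.30 in zQ175 mice. This likeness did not hold for every value. The summed level of 4 oligodendrocyte markers was 4881 and 5302 CPM in WT replicates 4 and 5, and 3149 to 4818 CPM in zQ175 mice. Creb1 was at 47.4 to 56.1 CPM in the 5 WT mice and at 59.2 to 68.1 CPM in zQ175 mice. Whether the labels of WT replicates 4 and 5 are right was not tested, and every WT mean below includes them. The summed level of 4 choroid plexus markers was 2036 and 1700 CPM in WT replicates 1 and 3, 951 CPM in CK2a'(+/-) replicate 1 and 3028 CPM in zQ175:CK2a'(+/-) replicate 2, against 4.64 to 15.4 CPM in the other 14 libraries. All libraries were kept under their labels.

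Per kb of exon, the transducers had the highest mean levels of the 9. Over the 5 WT mice the mean levels were 123 CPM per kb for Adcy5, 91.4 for Gng7, 54.0 for Gnal, 47.3 for Drd2, 35.2 for Adora2a, 27.7 for Drd1, 17.3 for Gpr6, 16.4 for Adora1 and 0.902 for Drd3. The spread between WT mice was wide, from a coefficient of variation of 13.0% for Adora1 and 19.7% for Gnal to 48.2% for Adora2a and 50.9% for Gpr6. In this order only Gng7 and Gnal, and Adora1 and Drd3, differed from their neighbour by more than the larger of the 2 SDs, so the order of the other neighbours was not resolved. The plot of levels by mouse shows the same values without division by length.

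**Figure D1:**
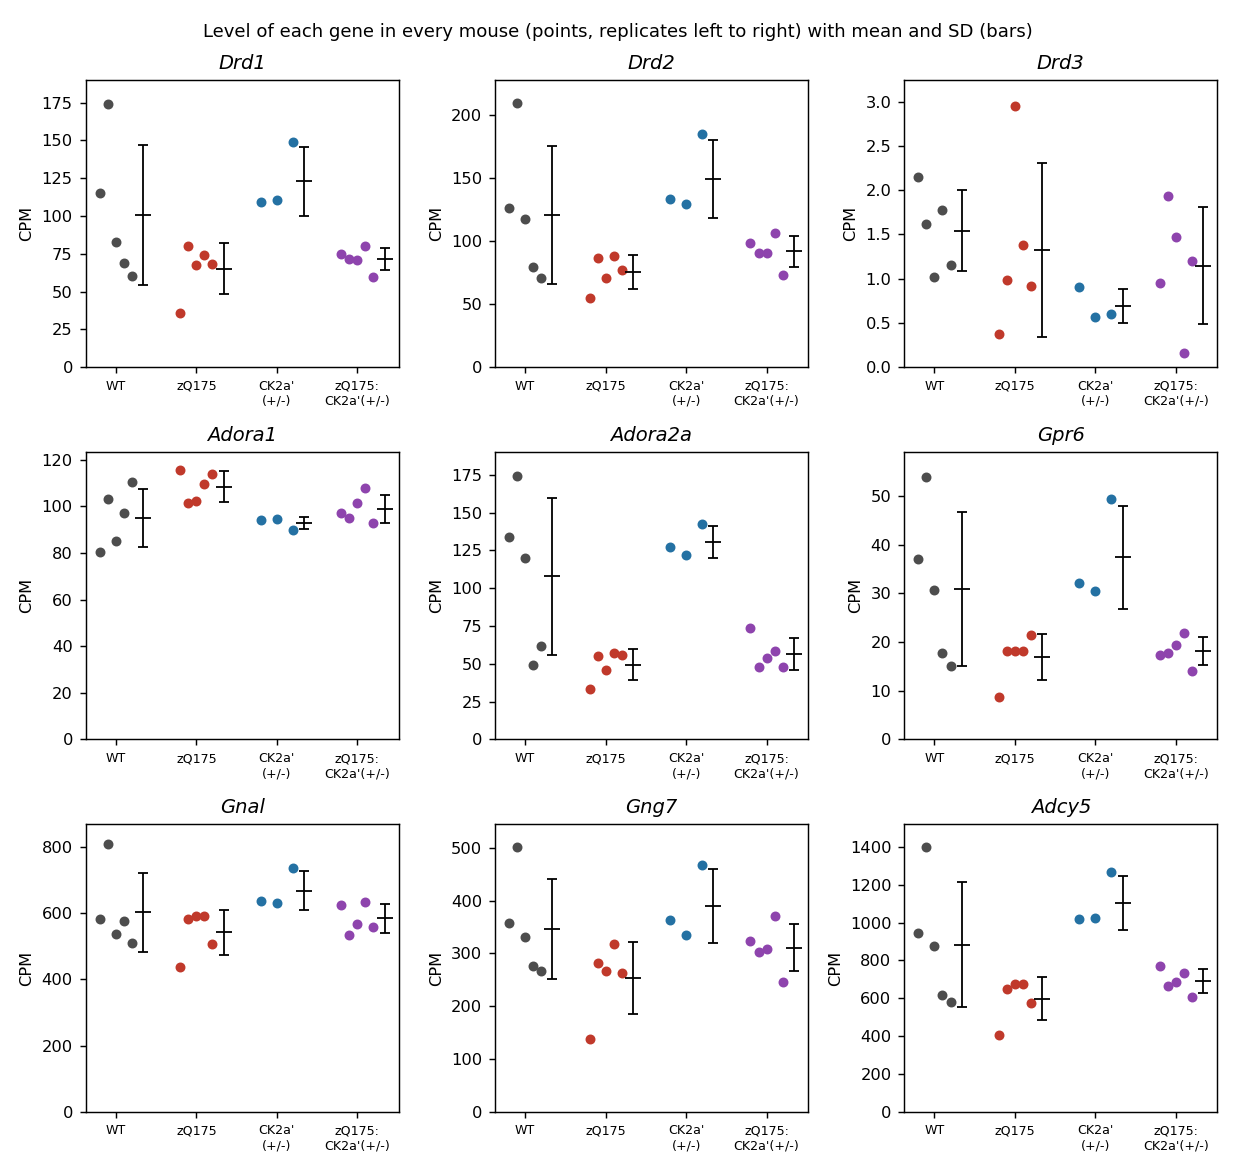
Level of each of the 9 genes in CPM (vertical axes, from 0) in every mouse, by genotype. Points are mice in order of replicate number, and bars give the mean and SD. For Adora2a the 5 zQ175 mice lie between 33.2 and 57.4 CPM, WT replicates 4 and 5 lie at 48.9 and 62.0 CPM, and the other WT mice lie at 119.8 CPM or above.

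Adora2a, the receptor for adenosine in neurons of the indirect pathway, had the largest change of the 9 genes. Its level was 134, 174, 119.8, 48.9 and 62.0 CPM in WT replicates 1 to 5. In zQ175 mice it was 33.2, 55.3, 45.9, 57.4 and 55.6 CPM. The groups overlapped through WT replicate 4, WT replicate 5 lay just above the highest zQ175 mouse, and the other WT mice lay far above. Adora2a fell to 45.9% of its WT level in zQ175 mice (log2 fold change -1.12, SE 0.246, adjusted p = 0.0557, edgeR's quasi-likelihood test), and was the only member called (adjusted p under 0.1) in this comparison, in which 1.1% of all genes tested were called. In bulk striatum, fewer cells of a type and less RNA per cell cannot be told apart. The call was made in 13 of 24 settings. It was lost when WT replicate 1 or 3 or zQ175 replicate 1 or 5 was left out (adjusted p of 0.107 to 0.164), when only these groups entered the fit (0.173), without both of those zQ175 mice (log2 fold change -1.02, adjusted p = 0.245) and without the 4 libraries with choroid plexus RNA (-0.94, adjusted p = 0.498). The last of these fits kept WT replicates 2, 4 and 5. Leaving out WT replicates 1 and 3, which lay high, lowers the difference by construction. Without WT replicates 4 and 5 the log2 fold change was -1.53 and 5 members were called (2.50% of all genes), though leaving out the low WT mice raises the difference by construction.

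Drd2, the dopamine receptor of the same neurons, stood at 126, 209, 117, 79.5 and 70.5 CPM in WT mice. It stood at 55.0, 86.3, 70.4, 88.4 and 76.8 CPM in zQ175 mice. WT replicates 4 and 5 lay inside the zQ175 range, and WT replicate 2 was the highest of all mice. The log2 fold change was -0.68 (SE 0.213), with an unadjusted p of 0.00449 and an adjusted p of 0.155 in edgeR. It was -1.001 (adjusted p = 0.00734) without WT replicates 4 and 5, and ranged from -1.001 to -0.40 over 23 alternative settings.

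Drd1, the dopamine receptor of the direct pathway, stood at 116, 174, 83.1, 68.8 and 60.5 CPM in WT mice. It stood at 36.1, 79.9, 67.8, 73.9 and 68.2 CPM in zQ175 mice. The lowest value belonged to zQ175 replicate 1, the library with the highest thalamic marker sum, and the groups overlapped. The log2 fold change was -0.62 (SE 0.227, adjusted p = 0.211, edgeR), and -0.93 (adjusted p = 0.0343) without WT replicates 4 and 5. Over 23 alternative settings it ranged from -0.93 to -0.34, and without zQ175 replicates 1 and 5 Drd1 was not called.

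Gpr6, an orphan receptor that raises cAMP without a known need for a ligand and is enriched in neurons of the indirect pathway, was at 37.0, 54.0, 30.8, 17.7 and 15.2 CPM in WT mice. Its zQ175 levels were 8.81, 18.1, 18.1, 18.3 and 21.5 CPM. Only WT replicates 4 and 5 overlapped with zQ175 mice, and the log2 fold change was -0.87 (SE 0.275, adjusted p = 0.160, edgeR). Without those 2 mice it was -1.26 (adjusted p = 0.00868), and over 23 alternative settings it ranged from -1.26 to -0.58.

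Adora1, the adenosine receptor that lowers cAMP, did not follow the others. It measured 80.4, 103, 84.9, 97.1 and 110.2 CPM in WT mice. It measured 116, 101, 102, 109 and 114 CPM in zQ175 mice, which all lay within or just above the WT range. The log2 fold change was 0.19 (SE 0.0814), with an unadjusted p of 0.0303 and an adjusted p of 0.307. Exons of Adora1 share 1162 bases (20.1%) with Mybph on the other strand, a gene with a mean of 38.9 counts per library beside 1809 for Adora1. The strand setting of the counting was not stated in the sources used here.

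Drd3, the dopamine receptor best known from the ventral striatum, was near the limit of detection. It had 43, 29, 15, 40 and 25 counts in WT mice and 8, 17, 48, 21 and 17 counts in zQ175 mice. At this depth a change could not be told from the spread, with a log2 fold change of -0.24 and a 95% interval from -1.28 to 0.81.

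Adcy5, the main adenylyl cyclase of striatal projection neurons, measured 945, 1398, 877, 616 and 577 CPM in WT mice. It measured 408, 647, 676, 676 and 577 CPM in zQ175 mice. WT replicates 1 to 3 lay above every zQ175 mouse and the other 2 did not. The log2 fold change was -0.56 (SE 0.181), with an unadjusted p of 0.00523 and an adjusted p of 0.161 in edgeR. It was -0.85 (adjusted p = 0.00872) without WT replicates 4 and 5, and ranged from -0.85 to -0.35 over 23 alternative settings.

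Gng7, the gamma subunit that pairs with the Gnal product in these neurons, was not called. It measured 358, 501, 331, 275 and 266 CPM in WT mice and 138, 282, 267, 317 and 263 CPM in zQ175 mice. The lowest value was again that of zQ175 replicate 1. The log2 fold change was -0.45 (SE 0.184, adjusted p = 0.278, edgeR), -0.65 (adjusted p = 0.123) without WT replicates 4 and 5 and -0.26 (adjusted p = 0.629) without zQ175 replicates 1 and 5.

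Gnal, the alpha subunit that stimulates the cyclase, was not called either. It measured 581, 809, 538, 577 and 511 CPM in WT mice and 438, 583, 592, 591 and 507 CPM in zQ175 mice. The groups overlapped over most of their range, and the log2 fold change was -0.15 (SE 0.111, 95% interval -0.38 to 0.08, adjusted p = 0.579, edgeR). Gnal shares 852 exon bases (7.63%) with Mppe1 on the other strand, which had a mean of 228 counts beside 10704 for Gnal.

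In zQ175 against WT mice, 8 of the 9 members had a log2 fold change under 0, as had 49.4% of all genes, with a median of -0.56 beside 0.00424 over all genes tested. An unadjusted p under 0.05 with a lower level was found for 6 of them, and for 7.1% of all genes. No member was lower without overlap between the groups, which 1.19% of all genes were. Of 7 projection neuron markers 1 was called lower (median log2 fold change -0.46), as was 1 of 2 tested markers of the indirect pathway (median -0.59), while 0 of 4 markers of the direct pathway (median -0.17) and 0 of 4 general neuron markers (median 0.03) were called by edgeR. In other lists, 3 of 4 oligodendrocyte markers were called lower and 1 of 5 tested cortical markers was called higher. The summed level of the oligodendrocyte markers was 3149 to 4818 CPM in zQ175 mice and 4881 to 6889 CPM in WT mice, and no marker of either list was at 0. With the cortical marker level as a covariate, the log2 fold change of Adora2a was -1.37 (adjusted p = 0.288). The part of these cell types in the results was not tested.

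Among mice with 1 Csnk2a2 allele, Adora2a was also lower in carriers of the zQ175 allele. Adora2a measured 127, 122 and 143 CPM in CK2a'(+/-) mice. It measured 73.6, 48.0, 53.9, 58.3 and 48.0 CPM in zQ175:CK2a'(+/-) mice, so that a wide gap separated the groups. It fell to 43.2% of the CK2a'(+/-) level (log2 fold change -1.21, SE 0.274, adjusted p = 0.0733, edgeR), as the only member called, beside 0.593% of all genes.

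The other lower genes were also separated between these 2 genotypes. Gpr6 measured 32.2, 30.5 and 49.5 CPM in CK2a'(+/-) mice and 14.1 to 21.9 CPM in zQ175:CK2a'(+/-) mice (log2 fold change -1.04, adjusted p = 0.194). Drd1 measured 109, 110.5 and 149 CPM and 60.0 to 80.0 CPM (log2 fold change -0.78, adjusted p = 0.267). Drd2 measured 133, 129 and 185 CPM and 73.0 to 106 CPM (log2 fold change -0.70, adjusted p = 0.304). For Adcy5 the values were 1019, 1023 and 1269 CPM and 606 to 771 CPM (log2 fold change -0.67, adjusted p = 0.216). With Adora2a, 5 of the 9 genes were thus lower without overlap, beside 4.48% of all genes, in groups of only 3 and 5 mice. Gng7 (log2 fold change -0.33), Gnal (-0.19) and Adora1 (0.09) overlapped, with adjusted p of 0.707, 0.717 and 0.858 in edgeR. The Adora2a call was lost when any 1 mouse of the 2 groups was left out other than zQ175:CK2a'(+/-) replicate 1, with adjusted p of 0.148 to 0.289, and 5 members were called when only the 2 groups entered the fit (2.43% of all genes). Without the 4 libraries with choroid plexus RNA, which leaves 2 CK2a'(+/-) mice, its log2 fold change was -1.18 (adjusted p = 0.289). Of 2 tested markers of the indirect pathway 1 was called lower (median log2 fold change -0.53), as was 1 of 4 oligodendrocyte markers (median -0.38). Of 7 projection neuron markers (median -0.43) and 4 direct pathway markers (median -0.11) 0 were called by edgeR. The part of these cell types in the result was not tested.

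**Figure D2:**
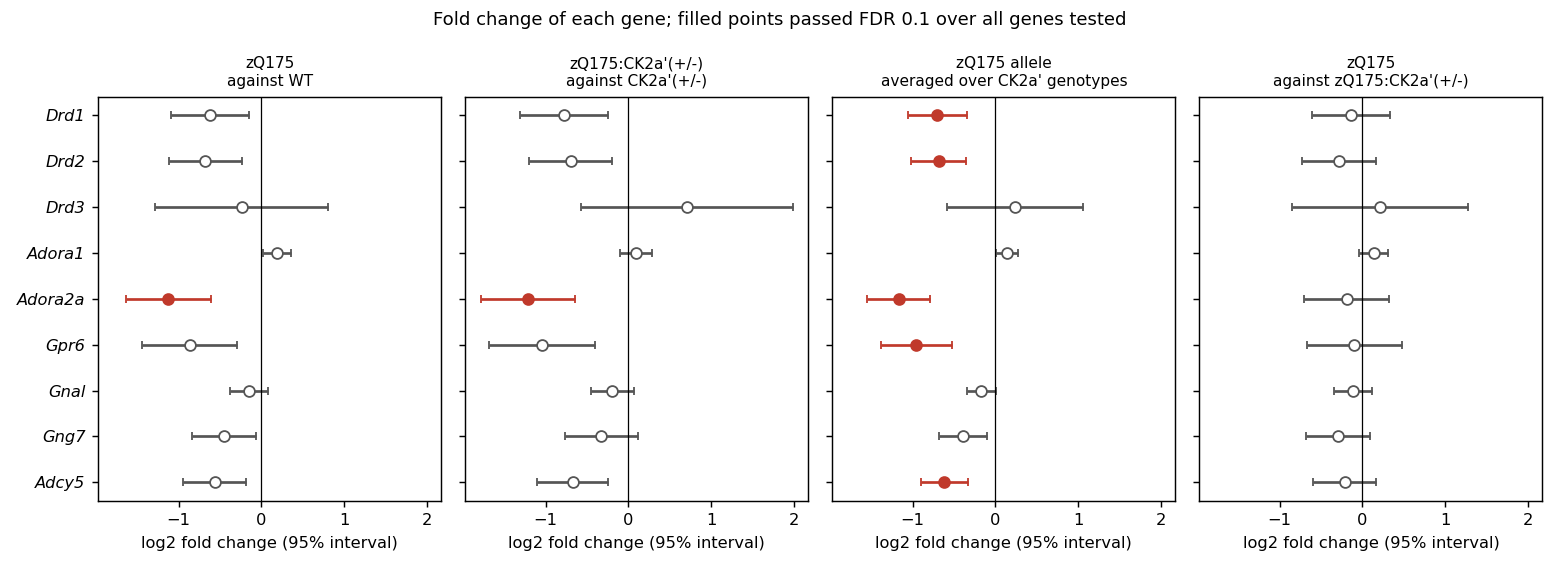
Log2 fold change of the 9 genes (horizontal axes) with 95% intervals in 4 comparisons, with filled red points for genes called at an adjusted p under 0.1 over all genes tested. Adora2a is called in the first 3 panels, 5 genes are called in the third, and in the fourth every interval includes 0.

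The effect of the zQ175 allele averaged over both Csnk2a2 genotypes drew on all 18 mice. In this comparison 5 of the 9 genes fell (4.9% of all genes were called, 2.78% as lower) and 0 rose. Adora2a fell to 44.5% of the level without the allele (log2 fold change -1.17, SE 0.184, adjusted p = 0.00224). Gpr6 fell to 51.6% (-0.95, SE 0.207, adjusted p = 0.0186). Drd1 fell to 61.5% (-0.70, SE 0.171, adjusted p = 0.0328), Drd2 to 62.1% (-0.69, SE 0.160, adjusted p = 0.0262) and Adcy5 to 65.1% (-0.62, SE 0.137, adjusted p = 0.0207), all in edgeR's quasi-likelihood test. The genes that fell were receptors of both projection pathways and the cyclase they share. Of 7 projection neuron markers 3 were also called lower (median log2 fold change -0.44), as were 3 of 4 oligodendrocyte markers (median -0.49), and their part in these values was not tested. Gng7 had a log2 fold change of -0.39 (adjusted p = 0.152), Gnal of -0.17 (adjusted p = 0.314), Adora1 of 0.14 (adjusted p = 0.269) and Drd3 of 0.23 (adjusted p = 0.838).

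Without zQ175 replicates 1 and 5 the same 5 genes were called, with log2 fold changes from -1.12 for Adora2a to -0.54 for Adcy5. Without WT replicates 4 and 5 Gng7 was called as well, and Adora2a was at -1.37. Without the 4 libraries with choroid plexus RNA only Adora2a was called (-1.06, adjusted p = 0.0656, beside 0.591% of all genes). Its WT mice were replicates 2, 4 and 5. In that fit of 14 libraries Gpr6 was at -0.95 (adjusted p = 0.153), Drd1 at -0.75 (0.166), Drd2 at -0.72 (0.164) and Adcy5 at -0.62 (0.161). Adora2a was called in all 31 settings tried, and Gpr6 and Adcy5 in 30 of them. Drd1 and Drd2 were called in 29, and were also lost without CK2a'(+/-) replicate 3, the mouse with the highest level of each of these genes in its group. This comparison shares its mice with both comparisons above and is not independent of them.

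**Figure D3:**
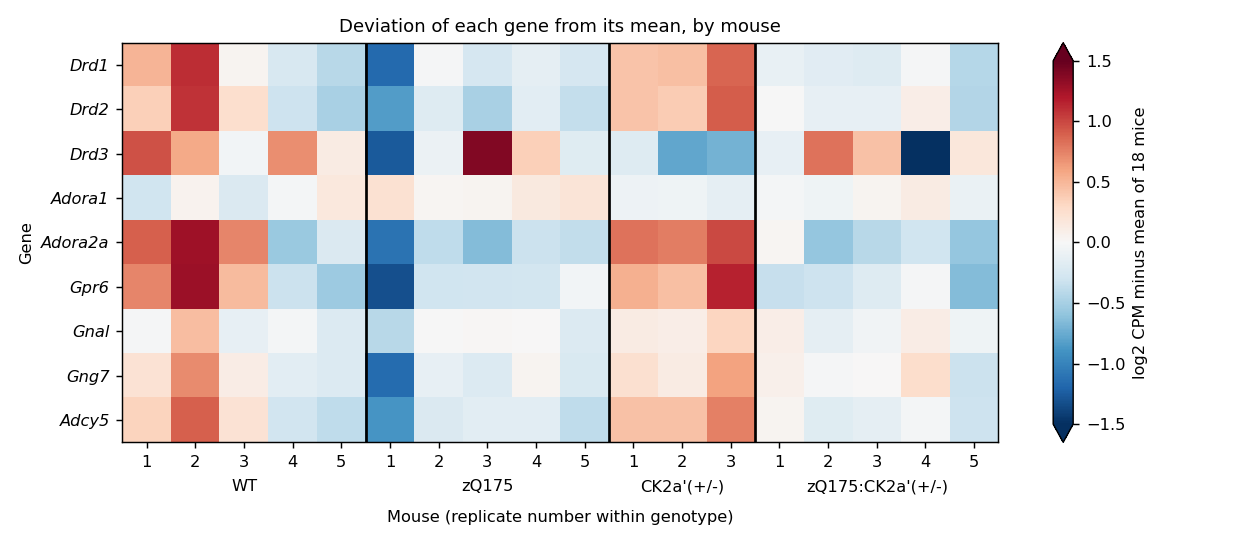
Log2 CPM of each gene minus its mean over the 18 mice (colour, limited to -1.5 and 1.5), with mice in columns by genotype and replicate number. WT replicates 1 to 3 and the CK2a'(+/-) mice are red in Adora2a, Gpr6, Drd2 and Adcy5, WT replicates 4 and 5 and carriers of the zQ175 allele are mostly blue or pale, and Adora1 stays near white.

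The loss of a Csnk2a2 allele was not accompanied by a detectable change of the 9 genes. Between CK2a'(+/-) and WT mice 0 members were called by edgeR and 0 by DESeq2, and 0 had an unadjusted p under 0.05 in edgeR (over the genes each tested, 0.0143%, 0.0293% and 4.48%). The log2 fold changes of 7 members were above 0, from 0.15 for Gnal to 0.32 for Adcy5. The 95% interval of Adora2a ran from -0.29 to 0.85, so its log2 fold change of 0.28 could not be told from the spread between mice. Without WT replicates 4 and 5, which raises the WT mean by construction, the sign turned for 5 of these 7 genes, with Adora2a at -0.13. Drd3 was lower without overlap after scaling (0.569 to 0.909 CPM against 1.02 to 2.14 CPM, log2 fold change -1.15, adjusted p = 0.999), on only 9 to 18 and 15 to 43 counts per library, as were 1.76% of all genes.

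Within the zQ175 background, Csnk2a2 dosage also left the 9 genes without a call. Between zQ175 and zQ175:CK2a'(+/-) mice 0 members were called by edgeR and 0 by DESeq2, and 0 had an unadjusted p under 0.05 in edgeR (over the genes each tested, 0.0143%, 0.145% and 6.27%). Adora2a was at 49.5 ± 10.1 CPM in zQ175 mice and 56.4 ± 10.6 CPM in zQ175:CK2a'(+/-) mice (SD, n = 5 each). Its log2 fold change was -0.19, with a 95% interval from -0.70 to 0.32. For Drd1 the interval ran from -0.61 to 0.34, for Drd2 from -0.72 to 0.16 and for Adcy5 from -0.59 to 0.16. The largest differences were those of Gng7 (-0.29, interval -0.68 to 0.09) and Drd2 (-0.28), and none of the intervals of the 9 genes excluded 0. The sign for Drd1 and Gpr6 turned without zQ175 replicate 1, to 0.02 and 0.07.

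In the interaction of the zQ175 and CK2a'(+/-) genotypes, 0 members were called by edgeR and 0 by DESeq2, with 0 at an unadjusted p under 0.05 in edgeR (over the genes each tested, 0.00478%, 0.103% and 5.39%). The interaction of Adora2a was -0.09 on the log2 scale, with a 95% interval from -0.86 to 0.68. Its sign was not stable, since it was 0.32 without WT replicates 4 and 5 (Drd2 0.31, Gpr6 0.22) and ranged from -0.33 to 0.10 when each mouse was left out in turn. Intervals of this width leave room for changes of a size like several of those seen with the zQ175 allele. The SD of Adora2a on the log2 scale was 0.78 in WT mice and 0.12 to 0.33 in the other groups.

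The zQ175:CK2a'(+/-) mice were compared with WT mice as well, sharing the WT mice of the comparisons above. Of the 9 genes 0 were called by edgeR and 0 by DESeq2 (0.0143% and 0.725% of the genes each tested). An unadjusted p under 0.05 in edgeR was found for 3, Adora2a (-0.93, adjusted p = 0.258), Gpr6 (-0.77, adjusted p = 0.400) and Drd1 (-0.49, adjusted p = 0.526). All 3 were lower, as were 4.85% of all genes at this p. Without WT replicates 4 and 5, 4 members were called, Adora2a, Gpr6, Drd2 and Adcy5 (1.05% of all genes).

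Ratios within a library do not depend on how libraries are scaled. The log2 ratio of Drd1 to Drd2 counts, which sets the direct against the indirect pathway receptor, was -0.26 ± 0.14 in WT mice and -0.24 ± 0.22 in zQ175 mice (SD, n = 5 each). The difference of 0.02 was smaller than the spread (exact two-sided permutation test, p = 0.802, adjusted over 9 ratio tests 0.802). The same ratio was -0.35 ± 0.05 in zQ175:CK2a'(+/-) mice, with a difference of 0.11 from zQ175 mice (exact permutation p = 0.302, adjusted 0.671). No loss of Drd1 relative to Drd2, or the reverse, was detectable.

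The log2 ratio of Adora2a to Drd2, both genes of the indirect pathway, was 0.09, -0.26, 0.03, -0.70 and -0.19 in WT mice. It was -0.72, -0.64, -0.62, -0.62 and -0.46 in zQ175 mice. Only WT replicate 4 lay in the zQ175 range. The difference was -0.41 (exact two-sided permutation test, p = 0.0397, adjusted p = 0.179). In zQ175:CK2a'(+/-) mice the ratio was -0.42, -0.91, -0.75, -0.86 and -0.60, and the difference from WT mice was -0.50 (exact permutation p = 0.0238, adjusted p = 0.179). Neither passed the adjustment, in a design whose smallest exact p was 0.00794.

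The log2 ratio of Gnal to Gnas, the alpha subunits that stimulate the cyclase in the striatum and in most other tissue, was spread from 0.12 to 1.48 in WT mice and from -0.68 to 0.87 in zQ175 mice. The difference was -0.18 (exact permutation p = 0.643, adjusted 0.802). The lowest ratio of all was that of zQ175 replicate 1.

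**Figure D4:**
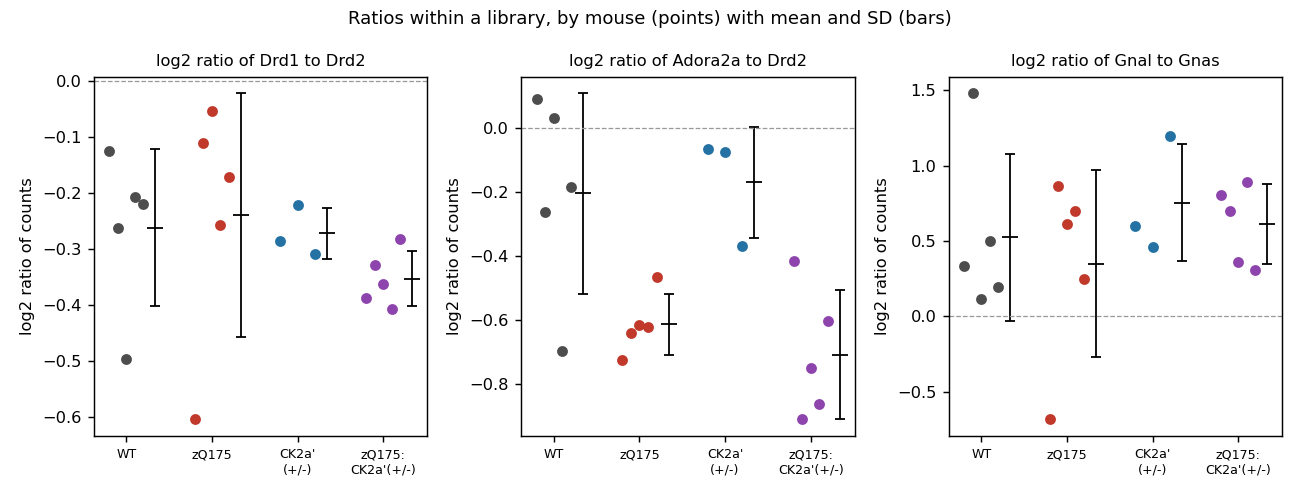
Log2 ratios of counts within each library for 3 pairs of genes, with 1 point per mouse and bars for the mean and SD, on vertical axes that differ between panels. The Drd1 to Drd2 ratios overlap in all genotypes, while for Adora2a to Drd2 the zQ175 mice lie between -0.72 and -0.46 and 4 of 5 WT mice lie above them.

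The members also varied together from mouse to mouse within a genotype. After the mean of each genotype was subtracted, the log2 levels of Drd1, Drd2, Adora2a, Gpr6, Gnal, Gng7 and Adcy5 were correlated over the 18 libraries in all 21 pairs, with Pearson r from 0.65 to 0.96 and a median of 0.89. The spread was widest in WT mice for 6 of these genes, the exception being Gng7. WT replicates 4 and 5, which lay with the zQ175 mice over the set of genes described above, held the lowest WT levels of each of these genes but Gnal. The median r was 0.89 without WT replicates 4 and 5, 0.91 without zQ175 replicates 1 and 5 and 0.88 without all 4 mice (r from 0.60 to 0.97, 14 libraries). Adora1 was not part of this, with r from -0.32 for Adora2a to -0.02 for Gnal, and Drd3 had r from 0.03 to 0.23 with the 7 genes. All values share the scaling of their library, and the set of cells dissected, so that these correlations only describe the libraries.

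Among 16640 other genes, 3 were named for each member as the most like it by this measure, as a description of these libraries. For Drd1 they included Phactr1 and Arpp21 (r of 0.98 each), and for Drd2 they were Pde10a, Slmap and St8sia3 (0.96 to 0.98). For Adcy5 they were Pde10a, Bcr and Pde1b (0.98 each), for Gpr6 they were Plk2, Pde1b and Arpp21 (0.96 to 0.97), and for Gng7 they included Ngef and Baiap2 (0.97 each). Adora2a was most like Scn4b, Fbxl16 and Inf2 (0.93 to 0.94), and Gnal most like Ankrd63, Itpr1 and Ryr3 (0.94 to 0.95). For Adora1 (Gm42732, Pofut1 and Crk, 0.84 to 0.85) and Drd3 (Hs3st5, Chchd2-ps and Uggt1, 0.81 to 0.92) none of these genes was among the nearest.

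The rest of the pathway was read from a list of 63 genes, of which 58 were tested. Averaged over Csnk2a2 genotypes, 9 of the 58 fell and 3 rose with the zQ175 allele (2.78% of all genes were called lower and 2.11% higher), with a median log2 fold change of -0.02 beside 0.00567 over all genes tested. Of 6 tested receptors 1 fell, Chrm4, a muscarinic receptor that lowers cAMP in neurons of the direct pathway (log2 fold change -0.83, SE 0.173, adjusted p = 0.0149). Of 17 G protein subunits and regulators 4 fell, Rgs9 (-0.73), which speeds the shutdown of Drd2 signalling, its partner Gnb5 (-0.35), Gnb2 (-0.24) and Ric8b (-0.29), a chaperone of the Gnal product. Of 8 other adenylyl cyclases 0 were called by edgeR (1 with an unadjusted p under 0.05, beside 16.2% of all genes).

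Further down the pathway, changes went both ways. Of 11 cAMP effectors 2 fell, Ppp1r1b (-0.77, adjusted p = 0.0128), which encodes the phosphatase inhibitor DARPP-32, and Arpp21 (-0.47). The kinase subunit gene Prkar2a (0.32) and the transcription factor gene Creb1 (0.30, adjusted p = 0.00568) rose. Of 6 phosphodiesterases, which break down cAMP, Pde10a (-0.77) and Pde1b (-0.68) fell and Pde4d (0.38) rose. Among abundant genes of the list that were not called were Prkacb (0.16), Prkar1b (0.15), Prkar1a (0.10), Gnb1 (-0.02), Prkaca (-0.03), Rapgef4 (-0.07) and Gnao1 (-0.15). Of 10 tested genes for the supply of dopamine and adenosine 0 were called by edgeR (1 with an unadjusted p under 0.05, beside 16.2% of all genes). In the averaged comparison without WT replicates 4 and 5, 13 genes of the list fell and 4 rose (3.70% of all genes were called lower and 2.90% higher), and Prkar2a was no longer called at a log2 fold change of 0.31 (adjusted p = 0.109). Without zQ175 replicates 1 and 5, 6 fell and 4 rose (2.04% and 1.55% of all genes), and Ric8b (-0.22, adjusted p = 0.199), Gnb5 (-0.29, adjusted p = 0.137) and Arpp21 (-0.39, adjusted p = 0.120) were no longer called.

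**Figure D5:**
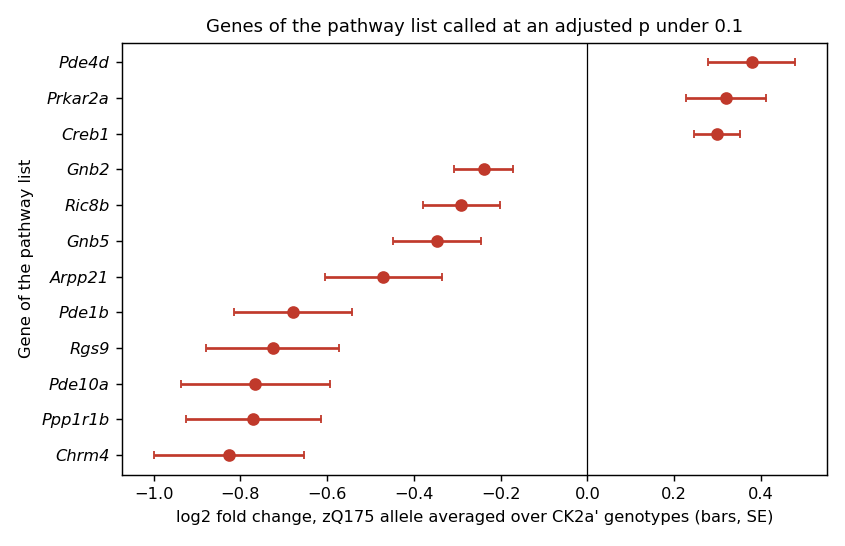
Log2 fold change with the zQ175 allele averaged over Csnk2a2 genotypes (horizontal axis, bars give the SE) for the 12 genes of the pathway list called at an adjusted p under 0.1. Genes that fell range from -0.83 (Chrm4) to -0.24 (Gnb2), and those that rose from 0.30 (Creb1) to 0.38 (Pde4d).

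In the single comparisons fewer genes of the list passed. Between zQ175 and WT mice Creb1 rose (0.30, adjusted p = 0.0613) and Ppp1r1b fell (-0.85, adjusted p = 0.0765). Ppp1r1b measured 278 to 651 CPM in zQ175 mice and 639 to 1248 CPM in WT mice. In each of the other comparisons between 2 genotypes, and in the interaction, 0 of the 58 genes were called by edgeR, and the share at an unadjusted p under 0.05 is given beside that of all genes. In zQ175:CK2a'(+/-) against CK2a'(+/-) mice 18 of the 58 genes had such a p, beside 9.19% of all genes. In zQ175:CK2a'(+/-) against WT mice 9 had it (9.13% of all genes), and in zQ175 against zQ175:CK2a'(+/-) mice 3 had it (6.27%). In CK2a'(+/-) against WT mice 5 had it (4.48%), as had 5 in the interaction (5.39%). When WT replicates 4 and 5 were left out, 9 genes of the list fell and 1 rose between zQ175 and WT mice (1.63% and 0.868% of all genes), and 4 fell and 1 rose between zQ175:CK2a'(+/-) and WT mice (0.674% and 0.378%). Without zQ175 replicates 1 and 5, 0 were called by edgeR between zQ175 and WT mice, as were 0 of all genes, and Ppp1r1b was at -0.65 (adjusted p = 0.270) and Creb1 at 0.33 (adjusted p = 0.245).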

How the data were processed

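Striatal RNA from 18 mice was sequenced as 2x50-bp reads from stranded libraries. Per the labels and the study's methods, the authors trimmed the reads (Trimmomatic), aligned them to GRCm38 (HISAT2 2.1.0), took out duplicated, unmapped and poorly mapped reads, and deposited raw counts per gene (Subread 1.6.2) that were not normalized. Other deposited values are gene lengths, the merged exon lengths in bases, used here for CPM per kb.

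The counts were tested with edgeR 4.0.16 (R 4.3.3, limma 3.58.1), by the quasi-likelihood test after TMM scaling and filterByExpr, in 1 fit of the 18 libraries on genotype alone. Adjusted p-values are Benjamini-Hochberg values over the 20914 genes tested, and a gene was called under 0.1. SEs were taken as the log2 fold change divided by the root of F. The averaged effect of the zQ175 allele is the mean of its log2 fold changes with 2 and with 1 Csnk2a2 alleles. Log2 CPM and log2 ratios used a prior count of 2. Ratios were compared by exact two-sided permutation tests (scipy 1.17.1), adjusted over 9 tests and read at 0.05. Both edgeR and DESeq2 1.42.0 were tested on simulated data. The intervals cover the spread between these mice, and the counting error alone at the median count was 0.888% for Adcy5 and 22.9% for Drd3.

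The genes, the pathway and marker lists and the tests were chosen with earlier results of these data known. All 9 genes were named, Csnk2a2 as the check of genotype, each gene of the pathway list called in any comparison with the 8 most abundant of those not called, and the 3 genes most correlated with each member. Alternatives were DESeq2, DESeq2's size factors, other filters, only the groups compared, a replicate block, Xist or cortical marker level as covariate, a robust fit, an FDR of 0.05, other ratio settings, and leaving out each mouse. Leaving out WT replicates 4 and 5, zQ175 replicates 1 and 5, or the 4 libraries with choroid plexus RNA, was added after the data were seen. Of the pathway list, genes that included Drd4, Adora3 and Slc6a3 did not pass the filter on low counts, and no row of the name Gpr52 was found. Some of the genes so named are not reported here. No promoter is shown for Adora2a or Gnal. Replicate numbers did not pair the mice.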

Additional observations from a re-analysis of the deposited data

Results flagged for a closer look

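A mouse was looked at more closely where it stood far from the others of its genotype (Dixon's test, groups of 5 mice). This held in 5 of 36 groups of values. Chance gives about 1 in 20 of independent groups. These groups share libraries and correlated genes, so the count cannot be set against that rate. Drd1 was at 5.18 log2 CPM in zQ175 replicate 1 and at 6.09 to 6.32 in the other zQ175 mice. Gng7 was at 7.11 log2 CPM in the same mouse and at 8.04 to 8.31 in the others. Gpr6 was at 3.16 log2 CPM there and at 4.18 to 4.43 in the others. These 3 values come from the library with the highest thalamic marker sum, and the part of that RNA in them was not tested. Gnal was at 9.66 log2 CPM in WT replicate 2 and at 8.997 to 9.18 in the other WT mice. The log2 ratio of Gnal to Gnas was 1.48 in that mouse and 0.12 to 0.50 in the others.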

How the results depend on the processing

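With the zQ175 allele averaged over Csnk2a2 genotypes, 5 to 6 members were called under every alternative that kept all mice (2.24% to 8.92% of all genes), 3 to 5 when each mouse was left out in turn (1.598% to 5.57%), and 1 without the 4 libraries with choroid plexus RNA (0.591%). Without these libraries, which include WT replicates 1 and 3, 0 were called in each of the other comparisons. The other counts were less stable. Between zQ175 and WT mice 1 member was called, against 5 without a filter on low counts (1.20% of all genes) or without WT replicates 4 and 5 (2.50%), 0 at an FDR of 0.05 (0.244%) or with a robust fit (1.497%), and 0 to 4 when each mouse was left out (0% to 2.82%). With the cortical covariate, with only these groups or without zQ175 replicates 1 and 5, 0 members and 0 of all genes were called. DESeq2 with default settings called 1 member, Adora2a, between zQ175 and WT mice (adjusted p = 0.0122, 5.26% of the genes it tested). It also called Adora2a between zQ175:CK2a'(+/-) and CK2a'(+/-) mice (adjusted p = 0.0349, 1.47%). Between zQ175:CK2a'(+/-) and CK2a'(+/-) mice 1 was called, against 5 without a filter (0.790%) or with only these groups (2.43%), 0 at an FDR of 0.05 (0.129%), with a robust fit (0.421%) or with the Xist (0.359%) or cortical covariate (0.182%), and 0 to 1 when each mouse was left out (0.0276% to 0.221%). Between zQ175:CK2a'(+/-) and WT mice 0 were called, against 1 without a filter (0.226%), 4 without WT replicates 4 and 5 (1.05%), and 0 to 1 when each mouse was left out (0.00480% to 0.163%). With a replicate block 0 members were called in both of the comparisons that had 1 (0.469% and 0.0574% of all genes), and 5 in the averaged one (2.48%). Replicate numbers were shared by different mice only, and deviations of same-numbered mice were correlated at -0.19 to 0.18 (median -0.02, 24 pairs), so the numbers did not pair them. The causes of these shifts were not tested, except that left-out mice and a stricter threshold change the test by construction.

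Signs turned only for values that were not called. With the cortical covariate the interaction was 0.24 for Adora2a, 0.18 for Gpr6 and Drd2, 0.15 for Drd1, 0.12 for Adcy5 and 0.10 for Gnal, and Drd3 was at -0.18 between zQ175 and zQ175:CK2a'(+/-) mice. Without WT replicates 4 and 5 the interaction was 0.32 for Adora2a, 0.31 for Drd2, 0.22 for Gpr6, 0.18 for Adcy5, 0.15 for Drd1 and 0.056 for Gnal. Without the same mice CK2a'(+/-) against WT gave -0.13 for Adora2a, -0.12 for Gpr6, -0.028 for Gng7, -0.019 for Drd2, -0.017 for Drd1 and 0.056 for Adora1, and the Gnal to Gnas ratio of zQ175:CK2a'(+/-) against WT was -0.0289. Without the choroid plexus libraries Adora1 was at -0.0518 between zQ175:CK2a'(+/-) and WT mice, and the interaction was 0.0449 for Adora1 and 0.0275 for Gnal. Without zQ175 replicates 1 and 5, zQ175 against zQ175:CK2a'(+/-) gave 0.0020 for Gpr6, 0.046 for Drd1, 0.0094 for Gnal and 0.11 for the Gnal to Gnas ratio, zQ175 against WT gave 0.20 for Drd3 and 0.20 for that ratio, and the interaction of Gng7 was -0.064. The Xist covariate gave an interaction of -0.043 for Gng7, the replicate block gave 0.017 for the interaction of Drd2 and 0.012 for Adora1 between CK2a'(+/-) and WT, and the difference in median gave 0.28 for the Gnal to Gnas ratio of zQ175 against WT.

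When each mouse was left out in turn, the interaction ranged from -0.33 to 0.10 for Adora2a, -0.32 to 0.16 for Drd2, -0.45 to 0.0048 for Drd1, -0.47 to 0.076 for Gpr6, -0.34 to 0.012 for Adcy5, -0.17 to 0.036 for Gnal and -0.0485 to 0.28 for Gng7. Between zQ175 and zQ175:CK2a'(+/-) mice the range was -0.22 to 0.017 for Drd1, -0.20 to 0.067 for Gpr6 and -0.32 to 0.48 for Drd3. Drd3 ranged from -0.78 to 0.0067 between zQ175 and WT mice and from -0.046 to 0.38 in the averaged comparison. Adora1 ranged from -0.016 to 0.11 between zQ175:CK2a'(+/-) and WT mice and from -0.088 to 0.024 between CK2a'(+/-) and WT mice, and Gnal from -0.10 to 0.070 between zQ175:CK2a'(+/-) and WT mice. For zQ175 against WT the Drd1 to Drd2 ratio ranged from -0.036 to 0.11 and the Gnal to Gnas ratio from -0.30 to 0.083, and for zQ175:CK2a'(+/-) against WT the latter ranged from -0.014 to 0.33. Depth was lowest for Drd3, with 3 to 48 counts per library.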
